A study of Mus musculus with 8 samples.

Results

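Receptors for hematopoietic cytokines were examined in LSK cells, the lineage-negative, SCA-1+, c-KIT+ fraction of bone marrow that holds stem and multipotent progenitor cells. The 9 genes were Kit, Csf1r, Epor, Csf3r, Csf2ra, Il3ra, Csf2rb, Il6st and Il1r1. They were taken by gene symbol from the 54532 genes of the deposited table, and all 9 were among the 13560 genes with enough counts to be tested.

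Cytokine receptors sit in the cell membrane and turn the binding of a secreted factor into survival, division or lineage commitment of the cell. KIT and CSF1R are tyrosine kinases themselves, whereas the receptors for erythropoietin, G-CSF, GM-CSF, IL-3 and the IL-6 family have no kinase of their own and rely on JAK kinases, which phosphorylate STAT transcription factors. The receptor for IL-1 uses yet another route, through the adaptor MYD88 and IRAK kinases. In bone marrow, KIT marks stem and early progenitor cells, EPOR is best known from the erythroid lineage, CSF1R from monocytes and macrophages, and CSF3R from the neutrophil lineage.

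RNA-Seq compared EpCAM+ with EpCAM- LSK cells to find how Zeb1-deficient cells that carry the epithelial adhesion molecule EpCAM on their surface differ from those that do not. Both fractions came from C57BL/6 Zeb1-/- mice, in which the interferon-inducible Mx1-Cre deletes Zeb1, a zinc finger repressor of epithelial genes, once pIpC is given, and cells were sorted 14 days after the last dose. Each fraction had 4 libraries, and no library of control mice was part of this comparison. Every difference below is thus between EpCAM+ and EpCAM- cells of mice with the same genotype and pIpC treatment. The Mx1 promoter is also active outside blood cells. The labels give 4 mice per genotype and an age of 8 to 12 weeks, but do not say which libraries share a mouse, so the p-values measure the spread between libraries. The total counts ran from 15225714 to 17073546 in EpCAM+ libraries and from 14114491 to 15929923 in EpCAM- libraries. A count of 3, taken as the floor of detection, corresponded to 0.168 to 0.222 CPM, the counts of a gene scaled to the size of its library. As a check of the sort label, Epcam had a mean of 187 ± 32.7 CPM (SD, n = 4) in EpCAM+ and 3.86 ± 3.61 CPM (n = 4) in EpCAM- libraries. Ly6a, which encodes SCA-1, was detected in every library but differed between fractions that had both been sorted as SCA-1+, at 201 ± 106 and 41.3 ± 29.4 CPM (log2 fold change 2.28, adjusted p = 0.00658, edgeR). Zeb1 itself was higher in EpCAM+ cells, at 19.5 ± 3.75 and 11.9 ± 2.14 CPM (log2 fold change 0.72, adjusted p = 0.00798, edgeR). Counts over the whole gene do not show how much of it came from the deleted part. The library EpCAM+ 1 stood apart from the other EpCAM+ libraries in Jchain, an immunoglobulin joining chain gene, at 3525 CPM against 199 to 429 CPM.

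Of the 9 receptors, 2 (Kit and Il1r1) were higher in EpCAM+ cells, 4 (Epor, Csf1r, Csf2rb and Il3ra) were lower and 3 (Csf3r, Csf2ra and Il6st) did not pass the test. Genes were tested by the quasi-likelihood method of edgeR, p-values were adjusted by Benjamini and Hochberg over all 13560 genes, and an adjusted p under 0.05 made a call. By that rule 42.6% of all tested genes were called, 21.8% as higher and 20.8% as lower, so that a called gene is common in this comparison. Of all tested genes, 12% were called and changed by over 2-fold in either direction, and 2.81% were called lower with such a change. Among the 9 receptors, Epor and Csf1r were called and changed by over 2-fold, both lower. The median log2 fold change, EpCAM+ over EpCAM-, was 0.04 over the 9 receptors and 0.02 over all tested genes. The 4 libraries of one fraction did not overlap with the 4 of the other in 5 of the 9 receptors, against 40.1% of all tested genes. Of these 5 receptors, Il1r1 was higher (background 20.1%) and Epor, Csf1r, Csf2rb and Il3ra were lower (background 20%). In bulk RNA, fewer cells that express a receptor and less of its RNA in each cell cannot be told apart.

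**Figure D1:**
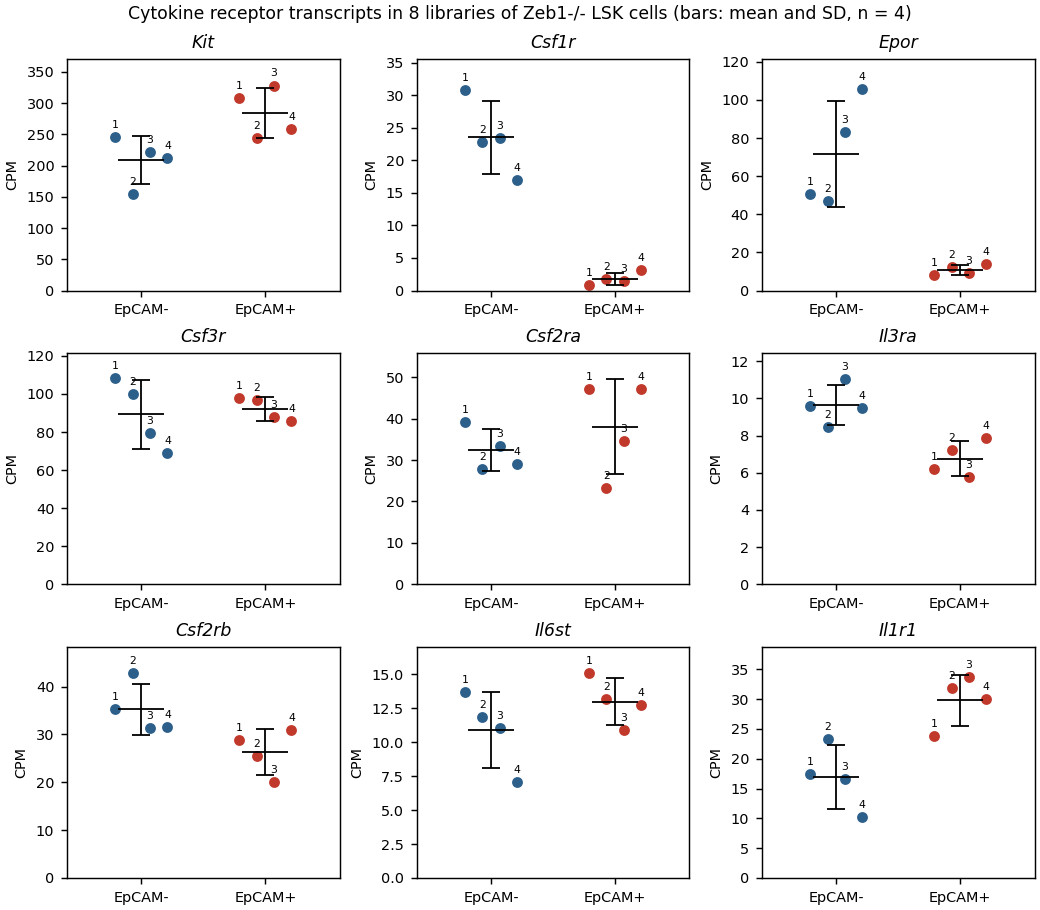
Level of each receptor transcript in CPM (linear axis from 0) in the 4 EpCAM- (blue) and 4 EpCAM+ (red) libraries, numbered by replicate, with the mean and SD. Epor and Csf1r lay far lower in every EpCAM+ library, Il1r1 lay higher, and Csf3r, Csf2ra and Il6st overlapped.

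Sequence upstream of the start is shown for 3 receptors, namely Epor and Il1r1, the receptors with the largest fall and the largest rise among those with a RefSeq promoter entry, and Kit, on which the cells were sorted. RefSeq (GRCm38.p6) promoter entries matched 7 of the 9 receptors, all but Csf1r and Csf2rb. The stretches run 5′ to 3′ on the gene's strand and end before both the RefSeq start and the start in the deposited table, so they hold no transcribed base. Capitals mark matches, on either strand, to 5 short motifs. Erythroid and stem cell GATA factors bind the letters AGATAA, and the E-box that ZEB1 binds was searched as CAGGTG. For PU.1 and related ETS factors the search used GAGGAA, the GC box of many promoters was searched as GGGCGG, and the palindrome of STAT factors is TTCNNNGAA, which was searched with any base at N.
Epor chr9:21963577-21963826 (-): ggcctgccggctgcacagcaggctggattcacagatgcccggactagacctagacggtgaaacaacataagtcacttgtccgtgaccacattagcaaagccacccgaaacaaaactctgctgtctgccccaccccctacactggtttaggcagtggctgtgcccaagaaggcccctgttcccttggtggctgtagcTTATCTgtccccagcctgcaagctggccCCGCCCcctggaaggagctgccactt
Il1r1 chr1:40224830-40225079 (+): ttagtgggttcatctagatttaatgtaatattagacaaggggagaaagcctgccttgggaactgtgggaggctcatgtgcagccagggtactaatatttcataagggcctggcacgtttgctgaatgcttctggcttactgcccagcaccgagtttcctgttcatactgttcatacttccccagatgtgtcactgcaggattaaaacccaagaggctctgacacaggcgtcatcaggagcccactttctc
Kit chr5:75574737-75574915 (+): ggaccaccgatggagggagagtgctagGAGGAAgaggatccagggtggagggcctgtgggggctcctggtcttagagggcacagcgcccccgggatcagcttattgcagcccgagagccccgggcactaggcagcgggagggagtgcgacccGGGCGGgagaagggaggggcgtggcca
The Epor stretch of 250 bases held 1 match to the GATA letters, as TTATCT, which was also present in 9.99% of the 32851 promoter entries cut to the same window, and 1 match to the GC box, as CCGCCC, present in 32.7% of them. The 250 bases of Il1r1 held none of the 5 motifs, whose shares in windows of that length were 17.2% for the E-box, 23.3% for the ETS letters and 7.02% for the STAT letters. The 179 bases of Kit held 1 match to GAGGAA, present in 17.1% of windows of that length, and 1 match to GGGCGG, present in 20.9%. No stretch held CAGGTG or its reverse complement. The motifs do not overlap each other in these stretches, and a match to letters is a description of the sequence, not a binding site.

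Kit, the receptor for stem cell factor (chromosome 5, 75574916-75656722, plus strand, GRCm38), had the highest mean FPKM of the 9 receptors in both fractions and was higher in EpCAM+ cells. It was counted at 308, 244, 328 and 259 CPM in EpCAM+ libraries 1 to 4 and at 245, 155, 221 and 212 CPM in EpCAM- libraries 1 to 4. Only the EpCAM- library 1 reached into the EpCAM+ range, and the EpCAM+ value exceeded the EpCAM- value in all 4 pairs of libraries with the same number. The means were 285 ± 39.9 and 208 ± 38.2 CPM (SD, n = 4 each), a log2 fold change of 0.45 with a standard error of 0.14 (adjusted p = 0.0276, edgeR). The difference in mean CPM did not reach the threshold in an exact two-sided permutation test (p = 0.0571, where 4 libraries against 4 allow no p under 0.0286). The edgeR call was lost when EpCAM+ library 1 or 3, or EpCAM- library 2, 3 or 4, was left out, with adjusted p from 0.0517 to 0.0832 and log2 fold changes from 0.32 to 0.47. Since c-KIT was one of the sort gates, the RNA difference arose among cells that had all been chosen for the protein.

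Csf1r encodes the receptor for M-CSF and IL-34 (chromosome 18, plus strand), the factors that maintain monocytes and macrophages, and had the largest fold difference of the 9. Its levels were 0.784, 1.76, 1.51 and 3.11 CPM in EpCAM+ libraries 1 to 4, from 12, 31, 27 and 48 counts. In EpCAM- libraries 1 to 4 they were 30.8, 22.8, 23.5 and 17.0 CPM, from 494, 308, 344 and 231 counts. Every EpCAM- library was thus far above every EpCAM+ library, though all EpCAM+ libraries remained above the floor of 3 counts. The means of 1.79 ± 0.973 and 23.5 ± 5.68 CPM differed 13.1-fold (log2 fold change -3.71, standard error 0.33, adjusted p = 0.000125, edgeR). The difference was called with each library left out in turn, with log2 fold changes from -4.10 to -3.49. A stretch of 871 bases of Csf1r overlaps Hmgxb3 on the other strand, and the sources used here do not say whether counting used the strand. Hmgxb3 gave no call in edgeR's test (15.7 and 16.5 CPM, log2 fold change -0.08 ± 0.11 SE, adjusted p = 0.603).

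Another receptor tyrosine kinase of the stem cell compartment, Flt3, which marks lymphoid-primed multipotent progenitors, was higher in EpCAM+ cells, as Kit was. It was counted at 335, 286, 378 and 464 CPM in EpCAM+ libraries 1 to 4 and at 233, 259, 167 and 136 CPM in EpCAM- libraries 1 to 4. The fractions did not overlap (log2 fold change 0.88, standard error 0.21, adjusted p = 0.00694, edgeR), and in pairs with the same number the difference ran from 0.14 to 1.77 on the log2 scale.

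Epor, the erythropoietin receptor (chromosome 9, 21958897-21963506, minus strand), was the other receptor with a large difference. In EpCAM+ libraries 1 to 4 it stood at 8.30, 12.1, 9.22 and 13.9 CPM, and in EpCAM- libraries 1 to 4 at 50.7, 47.2, 83.3 and 106 CPM. The fractions were far apart, and within the EpCAM- fraction libraries 3 and 4 were above libraries 1 and 2. The means of 10.9 ± 2.59 and 71.7 ± 27.8 CPM differed 6.59-fold (log2 fold change -2.72, standard error 0.28, adjusted p = 0.000179, edgeR). Leaving out each library in turn gave log2 fold changes from -2.88 to -2.48, all called.

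Csf3r, the G-CSF receptor (chromosome 4, 126024550-126044440, plus strand), gave no call. It was counted at 97.7, 97.1, 88.0 and 85.7 CPM in EpCAM+ libraries 1 to 4 and at 109, 99.8, 79.6 and 69.2 CPM in EpCAM- libraries 1 to 4. The EpCAM- libraries spread to both sides of the EpCAM+ libraries, and the log2 fold change was 0.04 with a standard error of 0.13 (adjusted p = 0.807, edgeR). Across the libraries left out in turn the value ran from -0.07 to 0.15, with no call.

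Markers of maturing blood lineages were present in both fractions at unequal levels, although the sort removed lineage-positive cells. The summed level of the 9 erythroid genes of a marker list was 102 to 297 CPM in EpCAM+ libraries and 2054 to 6916 CPM in EpCAM- libraries. Most of the mean EpCAM- sum came from a single gene, Car1. Of the 8 tested genes of the list, 6 were lower in EpCAM+ cells and 1 was higher, against 20.8% lower and 21.8% higher among all tested genes. No listed gene was at or under 3 counts in all libraries. Car1, an erythroid carbonic anhydrase, fell from 3443 ± 2069 CPM in EpCAM- to 65.4 ± 63.9 CPM in EpCAM+ libraries, and Klf1, an erythroid transcription factor, fell from 298 ± 133 to 16.2 ± 6.91 CPM (adjusted p = 0.000474 and 0.000134, edgeR). The exception was the beta-globin gene Hbb-bt, named after its values were seen, at 10.2 CPM in EpCAM+ and 3.98 CPM in EpCAM- libraries. EpCAM- libraries 3 and 4 had the higher erythroid sums, at 5113 and 6916 CPM, as they had the higher Epor levels. The part of these markers in the Epor result was not tested.

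For the myeloid lineages the lists differed among themselves. The counts of called genes in the lists below stand against 20.8% of all tested genes called lower and 21.8% called higher. The 9 monocyte and macrophage genes summed to 652 to 876 CPM in EpCAM+ and 381 to 660 CPM in EpCAM- libraries. Most of the mean sum in both fractions came from Lyz2, a lysozyme gene (572 and 356 CPM), so the sums mainly restate that gene. Of 7 tested, Lyz2 was the 1 called higher and 3 were lower in EpCAM+ cells. The median log2 fold change of the tested genes was -0.18, against 0.02 over all tested genes. None of the 9 was at or under 3 counts in all libraries. The 9 neutrophil genes summed to 1097 to 1853 CPM in EpCAM+ and 11942 to 18563 CPM in EpCAM- libraries. Of the 9, 4 were lower, none was higher and 5 had no call. Most of the mean sum in both fractions came from Mpo, the myeloperoxidase gene of the granulocyte and monocyte lineage, at 781 ± 269 and 10435 ± 1505 CPM. Elane, the neutrophil elastase gene, stood at 63.3 ± 27.4 and 1836 ± 1138 CPM. The part of these markers in the Csf1r result was not tested. The 9 stem cell genes ran the other way, from 341 to 637 CPM in EpCAM+ and 105 to 194 CPM in EpCAM- libraries, with 7 of 8 tested genes higher; the list includes Ly6a but none of the 9 receptors.

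**Figure D2:**
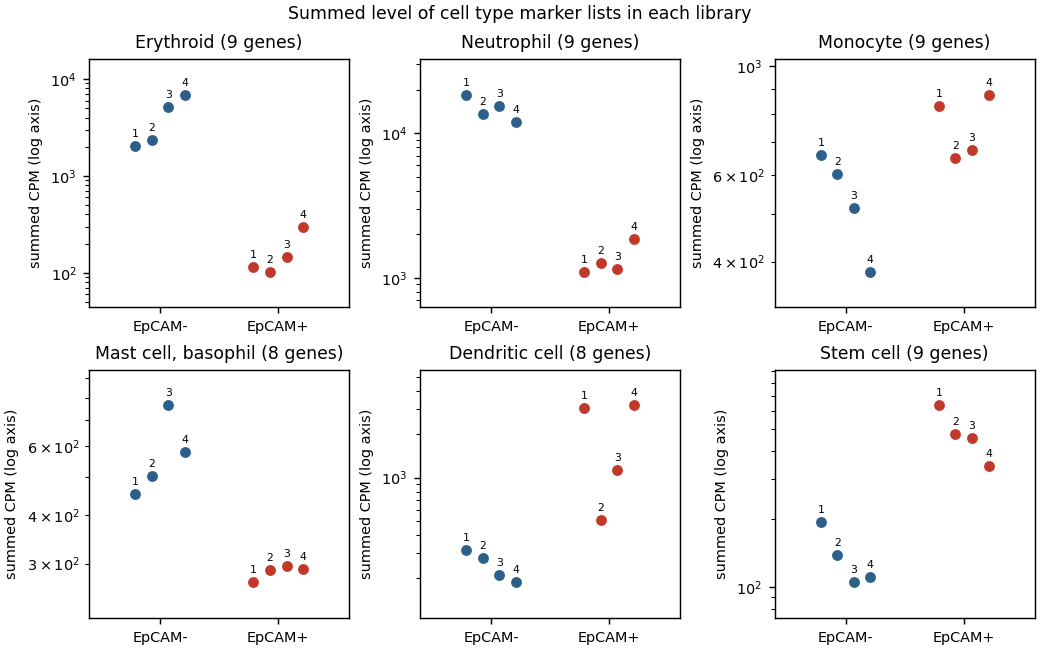
Summed CPM (log axis, a separate range in each panel) of 6 cell type marker lists in each EpCAM- (blue) and EpCAM+ (red) library, numbered by replicate. Erythroid, neutrophil and mast cell sums were higher in all EpCAM- libraries, and dendritic and stem cell sums in all EpCAM+ libraries, while the monocyte sums overlapped.

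Csf2ra, Il3ra and Csf2rb encode the chains of the GM-CSF and IL-3 receptors, in which a ligand-specific alpha chain joins a beta chain that both receptors share. Il3ra and Csf2rb were called lower in EpCAM+ cells, and Csf2ra gave no call. Csf2ra, the GM-CSF alpha chain (chromosome 19, 61224402-61228418, minus strand), was counted at 47.1, 23.4, 34.7 and 47.3 CPM in EpCAM+ libraries 1 to 4 and at 39.1, 27.9, 33.4 and 29.1 CPM in EpCAM- libraries 1 to 4. The fractions overlapped fully, with the lowest value of all 8 libraries in EpCAM+ library 2 (log2 fold change 0.23, standard error 0.21, adjusted p = 0.389, edgeR).

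Il3ra, the IL-3 alpha chain (chromosome 14, 14346275-14356011, plus strand), was lower in EpCAM+ cells. It stood at 6.21, 7.20, 5.76 and 7.85 CPM in EpCAM+ libraries 1 to 4 and at 9.61, 8.44, 11.1 and 9.49 CPM in EpCAM- libraries 1 to 4. The ranges did not touch, and the means were 6.75 ± 0.946 and 9.65 ± 1.08 CPM (log2 fold change -0.52, standard error 0.15, adjusted p = 0.0218, edgeR). Without EpCAM+ library 1, EpCAM+ library 3 or EpCAM- library 3 the call was lost, with adjusted p of 0.0522, 0.0645 and 0.0640 and log2 fold changes of -0.48, -0.45 and -0.45. Its counts were 95 to 127 in EpCAM+ and 114 to 162 in EpCAM- libraries.

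Csf2rb, the shared beta chain (chromosome 15, 78325752-78353847, plus strand), was counted at 28.9, 25.6, 20.0 and 31.0 CPM in EpCAM+ libraries 1 to 4 and at 35.3, 42.8, 31.4 and 31.5 CPM in EpCAM- libraries 1 to 4. The fractions did not overlap, but the highest EpCAM+ value and the lowest EpCAM- value were close to each other. The call was near the threshold (log2 fold change -0.42, standard error 0.15, adjusted p = 0.0438, edgeR). It was lost with upper-quartile scaling (adjusted p = 0.0980), with scaling to library totals (adjusted p = 0.0803) and with 10 counts required in every library (adjusted p = 0.0525). It was also lost without EpCAM+ library 1, 2 or 3 or EpCAM- library 1 or 2 (adjusted p from 0.0511 to 0.106, log2 fold changes from -0.47 to -0.31).

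Csf2rb has a neighbouring copy, Csf2rb2, a beta chain that in mice serves IL-3 alone. The longest protein-coding transcripts of both genes in GENCODE M21 were 91.7% identical over 4617 aligned bases. Yet only 165 of the 4751 windows of 150 bases in that Csf2rb transcript (3.47%) were found exactly in any protein-coding transcript of Csf2rb2. How reads that fit both genes were counted is not given in the sources used here, so the values of both genes carry that uncertainty. Csf2rb2 stood at 2.48, 1.19, 1.90 and 1.88 CPM in EpCAM+ and at 2.00, 1.55, 1.30 and 2.06 CPM in EpCAM- libraries 1 to 4, without a call (log2 fold change 0.10, standard error 0.29, adjusted p = 0.793, edgeR). Il5ra, the alpha chain that joins the same beta chain in the IL-5 receptor of eosinophils, was low in both fractions, at 1.33 ± 0.730 and 0.900 ± 0.377 CPM (log2 fold change 0.55, adjusted p = 0.338, edgeR).

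Il6st encodes gp130, the signaling chain that the IL-6 family of cytokines shares (chromosome 13, 112464070-112510086, plus strand). It was counted at 15.1, 13.2, 10.9 and 12.7 CPM in EpCAM+ libraries 1 to 4 and at 13.7, 11.8, 11.1 and 7.06 CPM in EpCAM- libraries 1 to 4. EpCAM- library 4 was the lowest and the other EpCAM- libraries lay within the EpCAM+ range (log2 fold change 0.25, standard error 0.19, adjusted p = 0.327, edgeR). Il6ra, the IL-6 binding chain that pairs with gp130, also gave no call, at 6.13 ± 2.57 CPM in EpCAM+ and 7.56 ± 1.31 CPM in EpCAM- libraries (log2 fold change -0.31, adjusted p = 0.420, edgeR).

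Il1r1, the signaling receptor for IL-1 alpha and IL-1 beta (chromosome 1, 40225080-40317257, plus strand), was higher in EpCAM+ cells. Its levels were 23.8, 31.8, 33.6 and 30.0 CPM in EpCAM+ libraries 1 to 4 and 17.4, 23.4, 16.7 and 10.3 CPM in EpCAM- libraries 1 to 4. The fractions did not overlap, with EpCAM+ library 1 only just above EpCAM- library 2. The means of 29.8 ± 4.28 and 16.9 ± 5.35 CPM differed 1.76-fold (log2 fold change 0.82, standard error 0.21, adjusted p = 0.0110, edgeR). The call held with each library left out in turn, with log2 fold changes from 0.64 to 1.00.

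The chain that completes the IL-1 receptor, Il1rap, showed no call, at 12.5 ± 2.23 CPM in EpCAM+ and 11.9 ± 0.464 CPM in EpCAM- libraries (log2 fold change 0.08, standard error 0.15, adjusted p = 0.688, edgeR). The related Il1rl1, which encodes the IL-33 receptor ST2 and uses the same partner, went the opposite way to Il1r1. It stood at 0.719, 1.93, 0.950 and 2.14 CPM in EpCAM+ libraries 1 to 4 and at 12.2, 14.6, 26.7 and 25.4 CPM in EpCAM- libraries 1 to 4. No value of one fraction came near the other (log2 fold change -3.77, standard error 0.38, adjusted p = 0.000179, edgeR). ST2 is known from mast cells and basophils, and the 8 genes of the mast cell and basophil list summed to 268 to 296 CPM in EpCAM+ and 453 to 765 CPM in EpCAM- libraries. Of 7 tested genes 4 were lower and none was higher, against 20.8% lower and 21.8% higher among all tested genes. Cpa3, a mast cell carboxypeptidase gene of this list, was at 57.0 ± 5.77 and 275 ± 94.3 CPM. Gata2, also listed, ran the other way without a call (205 ± 15.1 and 169 ± 31.0 CPM, log2 fold change 0.28, adjusted p = 0.0960, edgeR). It was called higher with upper-quartile scaling, library totals and the replicate block (adjusted p = 0.0348, 0.0488 and 0.0434, edgeR). None of the 8 was at or under 3 counts in all libraries, and their part in the Il1rl1 result was not tested.

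By an exact two-sided permutation test on CPM, the smallest p that 4 libraries against 4 allow (0.0286) was reached by Epor, Csf1r, Csf2rb, Il3ra and Il1r1, while Csf3r gave p = 0.8, Csf2ra p = 0.371 and Il6st p = 0.286. In pairs of libraries with the same number, Epor, Csf1r, Csf2rb and Il3ra were lower in the EpCAM+ library in 4 of 4 pairs, Kit and Il1r1 were higher in 4 of 4, and Csf3r was higher in 2 of 4. For all of these but Kit and Csf3r, this p and the direction in pairs follow from the lack of overlap already given. They add no further evidence, and 40.1% of all tested genes had no overlap.

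Levels of different receptors were compared in the authors' FPKM, which divide by transcript length. In EpCAM+ libraries Kit had the highest mean at 123 ± 17.9 FPKM (SD, n = 4), followed by Csf3r at 45.8 ± 3.55, Csf2ra at 21.0 ± 5.84 and Csf2rb at 13.8 ± 2.21 FPKM. Epor at 9.22 ± 2.14, Il1r1 at 8.27 ± 1.35, Il3ra at 6.30 ± 0.833 and Il6st at 4.67 ± 0.567 FPKM came next, and Csf1r was last at 0.427 ± 0.224 FPKM. From Csf2ra to Il3ra the ranges of neighbours in this order overlapped, whereas Kit, Csf3r and Csf2ra were separated from each other, as were Il3ra, Il6st and Csf1r.

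In EpCAM- libraries the order began with Kit at 85.5 ± 17.3, Epor at 57.3 ± 21.3 and Csf3r at 42.1 ± 9.36 FPKM. The range of Epor overlapped with that of Kit and with that of Csf3r, and the ranges of Kit and Csf3r did not overlap. Csf2rb at 17.5 ± 2.66 and Csf2ra at 17.0 ± 3.13 FPKM were close to equal by this measure. Il3ra at 8.52 ± 1.02, Csf1r at 5.35 ± 1.43, Il1r1 at 4.44 ± 1.40 and Il6st at 3.74 ± 1.04 FPKM formed the low end, where Csf1r overlapped with Il1r1 and Il1r1 with Il6st. By mean FPKM Epor had rank 2 of 9 in EpCAM- and rank 5 of 9 in EpCAM+ cells. The order depends on the length used. Divided by the length column of the table instead, Epor had rank 1 and Kit rank 3 among the 9 in EpCAM- libraries. They stood at 36.0 ± 14.0 and 23.4 ± 4.29 CPM per kilobase. Csf2rb and Csf2ra were not close by that column, at 4.84 ± 0.739 and 17.5 ± 2.75 CPM per kilobase in EpCAM- libraries. In EpCAM+ libraries Csf2rb had rank 4 by FPKM and rank 6 by the length column.

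**Figure D3:**
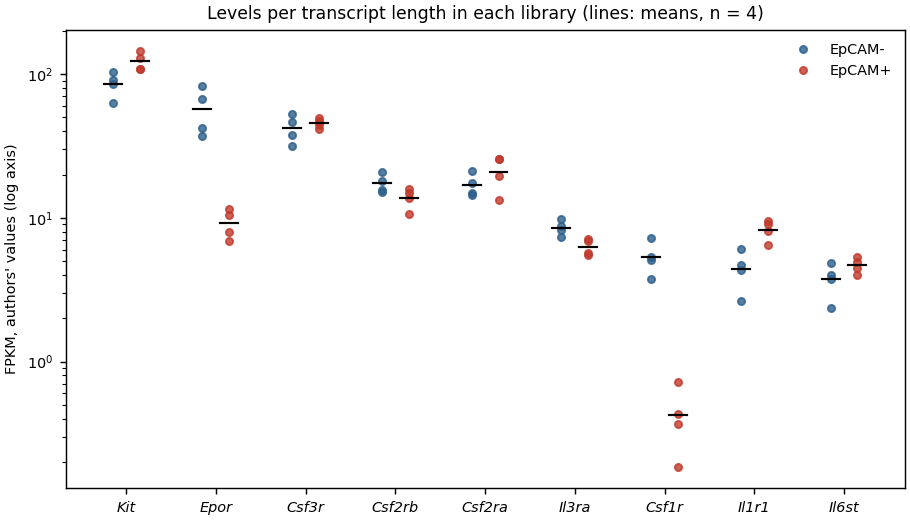
FPKM of the 9 receptors (log axis) in each EpCAM- (blue) and EpCAM+ (red) library, with lines at the means, ordered by the EpCAM- mean. Kit was the highest in both fractions by mean, Epor dropped from 57.3 to 9.22 FPKM and Csf1r from 5.35 to 0.427 FPKM.

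The genes whose log2 CPM followed each receptor most closely over the 8 libraries were sought among 8636 protein-coding genes with a mean of at least 10 CPM. The 8 libraries fall into 2 fractions, so for a receptor that differs between them the correlation largely restates that difference, and it is given as a description. Epor was followed by Ifrd2 (Pearson r = 0.998), Csf1r by Anxa3 (0.997) and Cst7 (0.994), and Il1r1 by Selenok (0.991) and 1810037I17Rik (0.986). Kit was followed by Ankrd11 (0.990) and Jak1 (0.982), Csf3r by Rac2 (0.979) and Tnfrsf1a (0.968), and Csf2rb by Ctcf (0.977) and Dglucy (0.972). For Csf2ra the closest were Itm2c (0.974) and Slc8b1 (0.946), for Il3ra Ints12 (0.952) and Tank (0.948), and for Il6st Suox (0.966) and Col4a3bp (0.949).

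Among 35 other cytokine receptors of blood cells, 28 were tested; 15 were higher in EpCAM+ cells, 3 were lower and 10 had no call. That is 64.3% called, against 42.6% of all tested genes (21.8% higher and 20.8% lower), and the median log2 fold change was 0.52 against 0.02 over all tested genes. The 15 included Flt3 and, of the lymphoid receptors, Il2rg, the gamma chain that the receptors for IL-2, IL-7 and IL-15 share, at 161 ± 11.4 CPM in EpCAM+ and 103 ± 12.5 CPM in EpCAM- libraries. Il18r1, the IL-18 binding chain, was counted at 12.9 ± 3.77 and 3.51 ± 0.977 CPM, a log2 fold change of 1.88. Crlf2, a chain of the TSLP receptor, and Il15ra, the IL-15 alpha chain, were higher by 0.48 and 0.61 on the log2 scale (adjusted p = 0.00109 and 0.00198, edgeR).

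Beside Il1rl1, the receptors that were lower were Il10rb, the shared IL-10 family chain, with a log2 fold change of -0.33 (adjusted p = 0.0140, edgeR), and Ifngr1, the interferon-gamma binding chain, with -0.61 (adjusted p = 0.0368). Both of these calls, but not that of Il1rl1, were lost with upper-quartile scaling (adjusted p = 0.0539 and 0.0605). Il7r, which marks lymphoid progenitors, was at 0.529 ± 0.256 and 0.212 ± 0.124 CPM and too low to be tested.

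**Figure D4:**
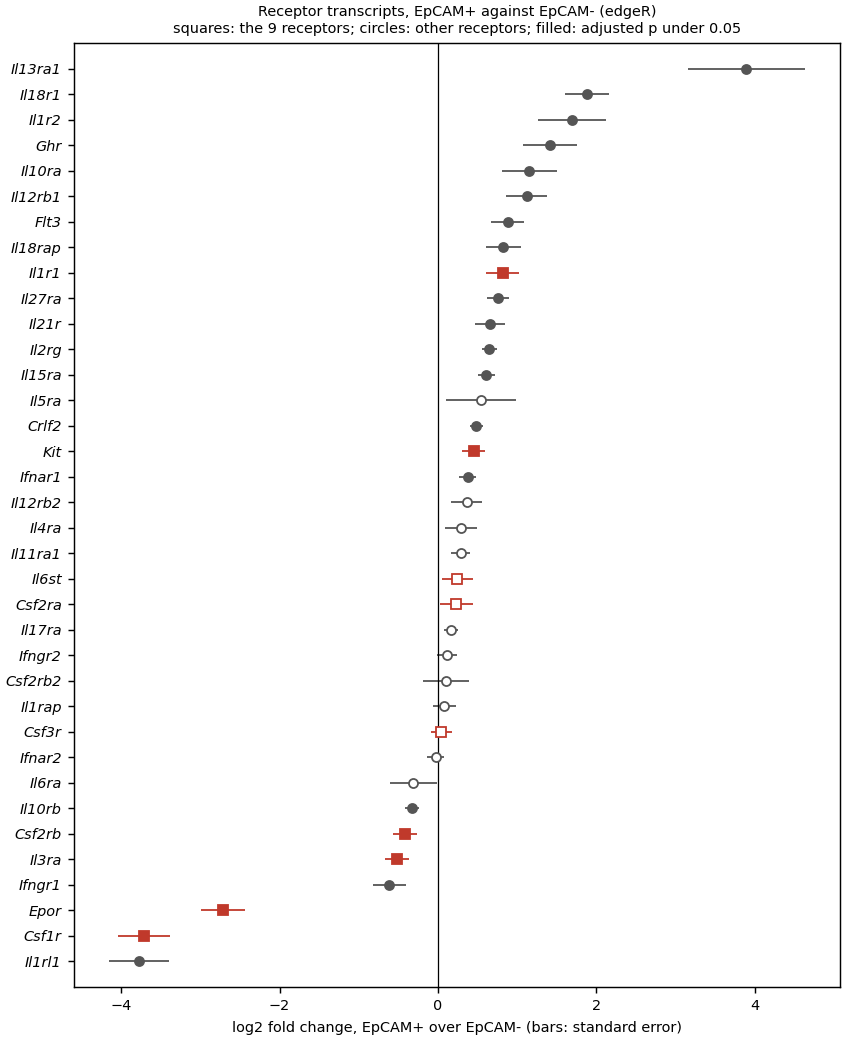
Log2 fold change, EpCAM+ over EpCAM-, with its standard error for the 9 receptors (red squares) and the other tested receptors reported here (grey circles); filled symbols had an adjusted p under 0.05 in edgeR's test. Epor, Csf1r and Il1rl1 stand apart on the lower side at -2.72, -3.71 and -3.77.

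Genes that act below the receptors were described by 5 lists, JAK kinases and STAT factors, feedback inhibitors, adaptors and other kinases, ligands, and known STAT target genes, with 79 genes in all. Of the 67 tested, 27 were higher in EpCAM+ cells and 2 were lower, which makes 43.3% called against the 42.6% of all tested genes; their median log2 fold change was 0.24. Under the fit with the replicate number as a block, 35 were higher and 2 were lower, while 50.3% of all tested genes were called (25.6% higher and 24.7% lower).

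Of 11 JAK and STAT genes, 5 (45.5%) were higher and none was lower, against 42.6% of all tested genes called (21.8% higher). The 5 included Jak3, the kinase that binds the Il2rg chain (102 ± 18.9 and 61.3 ± 10.5 CPM, log2 fold change 0.74), Stat4, a mediator of IL-12 signals (0.58), and Stat3, the main effector of gp130 and CSF3R (163 ± 19.6 and 104 ± 23.5 CPM, 0.65, adjusted p = 0.00625, edgeR). Jak2, the kinase that EPOR and the beta chain use, had a log2 fold change of 0.28 with an adjusted p of 0.160, and of 0.29 with an adjusted p of 0.0184 under the replicate block. The STAT5 genes, which serve EPOR and the IL-3 and GM-CSF receptors, had no call in either fit: Stat5a was at 110 ± 13.5 and 99.6 ± 9.10 CPM and Stat5b at 107 ± 6.51 and 105 ± 10.2 CPM.

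Of 21 tested feedback inhibitors, 9 were higher and none was lower, a share of 42.9% that is close to the 42.6% of all tested genes called in either direction (21.8% higher). Socs2, which STAT5 induces and which dampens cytokine receptors, was counted at 12.7, 18.1, 10.3 and 9.21 CPM in EpCAM+ libraries 1 to 4 and at 3.62, 1.26, 3.00 and 2.35 CPM in EpCAM- libraries 1 to 4. Cish, another STAT5-induced inhibitor, was at 13.9, 13.1, 13.0 and 8.88 CPM in EpCAM+ and at 6.18, 4.07, 3.34 and 3.68 CPM in EpCAM- libraries 1 to 4. For both genes every EpCAM+ library exceeded every EpCAM- library (log2 fold changes 2.28 and 1.49, adjusted p = 0.000534 and 0.000782, edgeR). Dok2, an adaptor that restrains tyrosine kinase signals, was higher by 0.97 (78.2 ± 5.84 and 39.9 ± 4.95 CPM). Socs3, which acts on gp130, CSF3R and the leptin receptor, overlapped between the fractions (log2 fold change 0.73, adjusted p = 0.244), and was called under the replicate block (0.80, adjusted p = 0.00924).

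Of 15 genes known to be induced by STAT5 or STAT3, 7 were higher and 1 was lower, which is 53.3% against 42.6% of all tested genes called (21.8% higher and 20.8% lower). Their median log2 fold change was 0.73, against 0.02 over all tested genes. Socs2 and Cish are among the 7, as is Pim1, a survival kinase gene, which was at 20.5 ± 1.11 and 9.67 ± 3.26 CPM (log2 fold change 1.09, adjusted p = 0.00223, edgeR). The gene that was lower was Myc, the growth regulator, at 440 ± 63.1 and 582 ± 77.9 CPM (-0.40, adjusted p = 0.0265), a call that was lost with upper-quartile scaling and with library totals (adjusted p = 0.0688 and 0.0684).

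Of 20 adaptors and other kinases, 6 were higher and 1 was lower. That is 35% called, below the 42.6% of all tested genes (21.8% higher and 20.8% lower). The SRC family kinase genes Lck and Fyn were higher in EpCAM+ cells, Lck at 55.4 ± 5.23 against 21.9 ± 5.17 CPM (log2 fold change 1.34) and Fyn at 85.2 ± 4.97 against 55.0 ± 7.80 CPM (0.63), as was Plcg1, a phospholipase gene (0.55). Btk, a kinase gene of B and myeloid cells, was lower (88.0 ± 4.54 and 110 ± 8.49 CPM, -0.32, adjusted p = 0.00714, edgeR).

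The ligands of the 9 receptors were mostly too low in the cells themselves to be tested at this depth. Of 15 ligand genes 4 were tested, and 6 (Il1a, Epo, Il34, Csf2, Il3 and Csf3) had 3 counts or fewer in every library. Of the 4 tested, 2 were called, both higher, which is 50% against 42.6% of all tested genes called (21.8% higher). Kitl, which encodes stem cell factor, stood at 0.0629 ± 0.0531 and 0.208 ± 0.230 CPM, near or under the floor, and Il1b at 0.860 ± 0.466 and 0.485 ± 0.365 CPM; neither was tested. The genes called were Ctf1 and Clcf1, members of the IL-6 family that signal through gp130, at 8.96 ± 1.25 and 12.6 ± 2.28 CPM in EpCAM+ and 5.86 ± 0.537 and 5.83 ± 2.68 CPM in EpCAM- libraries (log2 fold changes 0.61 and 1.11, adjusted p = 0.0101 and 0.0147, edgeR). Csf1, the M-CSF gene, had no call (3.06 ± 0.443 and 2.67 ± 1.08 CPM, adjusted p = 0.629).

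**Figure D5:**
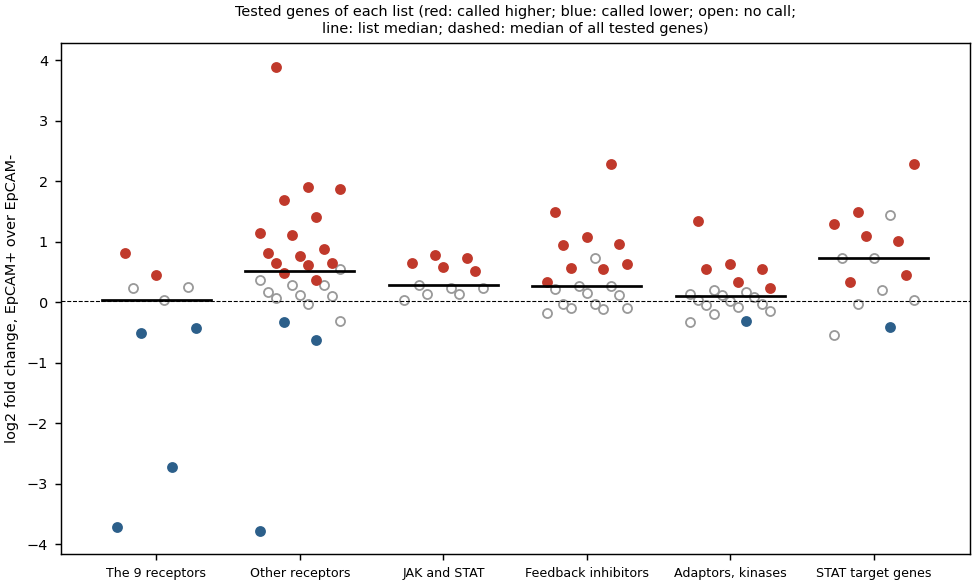
Log2 fold change, EpCAM+ over EpCAM-, of each tested gene of the 9 receptors, the other receptors and 4 signaling lists (red, called higher; blue, called lower; open, no call), with the list median as a line and the median of all tested genes dashed. The calls of the 9 receptors run to both sides, those of the JAK and STAT genes and of the feedback inhibitors to the higher side alone.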

How the data were processed

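RNA was measured by RNA-Seq in 4 EpCAM+ and 4 EpCAM- Zeb1-/- LSK libraries. Per the labels and the study's methods, RNA was amplified with SMART-Seq v4, libraries were made from 1 ng of cDNA and read as 150-bp paired ends, and the authors filtered the reads, aligned them to GRCm38.p6 with STAR 2.6.1d and counted them per gene with featureCounts 1.5.0-p3. The submitters' processing notes also name DESeq2 1.20.0. The annotation release and the use of strand are not given in the sources used here. The authors deposited raw whole-number counts for 54532 genes, and all tests use these counts. The authors also deposited FPKM, computed from transcript length and mapped reads; these were used only to set different genes side by side. The lengths they imply differ from the table's length column (median ratio 2.52 over 9692 genes with at least 100 counts). The order of levels was given by FPKM, and levels by the length column only for Epor, Kit, Csf2ra and Csf2rb. Further columns hold the comparisons that the authors ran themselves, between fractions and between single libraries, and these were left out.

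Genes were kept with edgeR's filterByExpr (fractions as groups), which left 13560 genes. After TMM scaling the quasi-likelihood test of edgeR was run (edgeR 4.0.16, limma 3.58.1, R 4.3.3), on both sides, and p-values adjusted by Benjamini-Hochberg were called under 0.05. Standard errors were derived from the F statistic. CPM used TMM-scaled library sizes. Counting floors (3 counts) cover counting error only, since the reads carry no molecular identifiers. Single CPM values were compared with exact permutation tests (scipy 1.17.1). The receptors, the gene lists and the rule for named genes were chosen with earlier results of these data known. Named were the 9 receptors, Epcam, Ly6a, Zeb1, Csf2rb2, the other receptors with the smallest adjusted p (up to 5 in each direction) and 7 fixed ones, up to 3 genes in each direction of each signaling list and 10 fixed ones, the 2 genes of a marker list with the highest mean CPM and the 2 genes most like each receptor. Hbb-bt, Hmgxb3 and ligand or stromal genes at the floor were named after their values were seen. A few genes chosen by this rule were left out of the text.

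The main edgeR test and the permutation tests did not pair the libraries. The replicate numbers were taken to pair them only in the replicate block and in the comparisons of libraries with the same number. The reason was that the deviations of a gene from its fraction mean correlated across genes between EpCAM+ and EpCAM- libraries of the same number (r = 0.205 to 0.356 in 4 pairs) and hardly between libraries of different numbers (-0.216 to 0.0396 in 12 pairs). What the numbers share is not stated, and the block is an alternative. Counts of the 12 pairs of libraries of one fraction differed by more than sampling noise (chi-square divided by its degrees of freedom, 9.80 to 91.7). The procedure was tested on simulated data. Alternatives were DESeq2 1.42.0, upper-quartile scaling, library totals, DESeq2's size factors, 1 count in any library or 10 counts in every library as the filter, the replicate block, and leaving out each library.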

Additional observations from a re-analysis of the deposited data

Results flagged for a closer look

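Within each fraction, each named gene was examined for a library far from the other 3 (by Dixon's criterion at the 95% level). This held in 8 of 146 groups of values from 73 genes, where chance gives about 1 in 20, and for none of the 9 receptors. Il5ra was at 2.42 CPM in EpCAM+ library 1 and 0.907 to 1.01 CPM in the other EpCAM+ libraries. The same library was the highest in the immunoglobulin joining chain gene Jchain (3525 CPM, others 199 to 429 CPM) and in Cd79a, a signaling chain of the B cell receptor (36.4 CPM, others 1.98 to 4.93 CPM). EpCAM+ library 4 was the highest in Il1b (1.56 CPM, others 0.588 to 0.680 CPM) and in Klf1 (26.5 CPM, others 12.2 to 13.1 CPM). Hlf, a stem cell transcription factor, was at 165 CPM in EpCAM+ library 3 and 109 to 112 CPM in the others. Among EpCAM- libraries, Xbp1 was lowest in library 4 (167 CPM, others 239 to 249 CPM) and Cd4 highest in library 2 (1.63 CPM, others 0.749 to 0.809 CPM).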

How the results depend on the processing

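Of the 9 receptors, Epor, Csf1r and Il1r1 were called in the same direction under each alternative run, with adjusted p of at most 0.00121, 0.00100 and 0.0345. The log2 fold change of Csf2rb was -0.34 with upper-quartile scaling, -0.34 with library totals and -0.39 with 10 counts required in every library, none of which was called. Its difference in mean CPM was -7.10 (exact permutation p = 0.114) and -7.17 (p = 0.0857) with those scalings, and that of Kit became 90.8 and 90.1 CPM (p = 0.0286 for both). Leaving out each library gave log2 fold changes from 0.32 to 0.53 for Kit and from -0.51 to -0.31 for Csf2rb (called in 3 of 8 for each), and from -0.60 to -0.45 for Il3ra (5 of 8). It gave 1 to 2 receptors called higher, 2 to 4 called lower (2 without EpCAM+ library 1 or 3) and 1 to 3 signaling genes called lower (1 without EpCAM+ library 1 or EpCAM- library 3 or 4). Upper-quartile scaling left 1 of the other receptors and 1 signaling gene called lower, and library totals left 1 such signaling gene. The replicate block changed no call among the 9 receptors (Kit adjusted p = 0.00131); it raised the genes called to 6818 and turned Jak2, Socs3, Gata2 and Cd79b into calls. The split of all calls was 2961 higher and 2818 lower with TMM, 3642 and 2083 with upper-quartile scaling, and 3476 and 2066 with library totals. No called value changed sign, while that of Csf3r, which was not called, ran from -0.07 to 0.15. Apart from the fewer samples when a library is left out, the cause of these changes was not tested. Depth limits Csf1r in EpCAM+ cells, which rests on 12 to 48 counts a library.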

Other observations

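The balance of alpha and beta chains was examined after the values had been seen. Csf2ra over Csf2rb, as a ratio of FPKM, was 1.53 ± 0.389 in EpCAM+ and 0.992 ± 0.218 in EpCAM- libraries (SD, n = 4 each), with overlapping ranges of 0.966 to 1.83 and 0.689 to 1.17 (exact two-sided permutation test, p = 0.114). Il3ra over Csf2rb was 0.462 ± 0.0591 and 0.500 ± 0.115 (exact two-sided permutation test, p = 0.686). No difference in either ratio was shown. The size of a ratio within a fraction depends on the length used. By the length column Csf2ra was at 17.5 and Csf2rb at 4.84 CPM per kilobase in EpCAM- libraries.

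The counts of called genes in the lists of this paragraph stand against 21.8% of all tested genes called higher and 20.8% called lower. Of the lists for other cell types, the conventional dendritic cell genes, which include Flt3, summed to 506 to 3178 CPM in EpCAM+ and 187 to 314 CPM in EpCAM- libraries, with 6 of 7 tested genes higher. Among them, H2-Aa, an MHC class II gene, was at 1468 ± 1195 and 34.7 ± 25.6 CPM. The megakaryocyte genes summed to 403 to 648 CPM and 127 to 356 CPM, with 2 of 7 tested genes higher and none lower. The other 5 had no call, and the median log2 fold change was 0.15 against 0.02 over all tested genes. The sums therefore do not show a rise across the list. Pf4, the platelet factor gene, was among those without a call (96.2 ± 80.3 and 86.7 ± 57.2 CPM, adjusted p = 0.880, edgeR). Of 7 stromal genes, Col3a1, Pdgfra and Col1a1 had 3 counts or fewer in every library, and the single gene tested, Pdgfrb, had no call (23.4 ± 2.59 and 27.4 ± 4.65 CPM). The plasma cell genes summed to 385 to 3961 CPM in EpCAM+ and 169 to 256 CPM in EpCAM- libraries, with 2 of 4 tested genes higher. Among the other lists, B cell genes were higher in 2 of 5 tested, T cell genes in 2 of 2 (Lck and Cd4; the other 6 listed were too low to test), plasmacytoid dendritic cell genes in 3 of 6 and endothelial genes in 2 of 3, no tested gene of these lists was lower, and the single natural killer cell gene tested, Nkg7, had no call. The call of Cd4 was lost when 1 count in any library was the filter (adjusted p = 0.0743, edgeR) and without EpCAM+ library 2, 3 or 4 or EpCAM- library 1, 3 or 4 (adjusted p from 0.0502 to 0.123).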
